A study of Mus musculus with 4 samples.

Results

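Distal accessible regions that were called in every peak list of the series are described here. They numbered 8239, of 38532 regions in the list of cells treated with TGFβ for 2 h, and they were chosen by the lists themselves. A region of the TGFβ 2 h list counted as a member when it overlapped a region of the vehicle 2 h list and a region of the 10 min list by at least 1 bp and lay more than 1000 bp from every annotated transcription start site (TSS). Presence in the lists, overlap, width and score therefore belong to the choice and are given as descriptions. DNA sequence, position inside genes and neighbouring genes were not used to choose the members.

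The data are ATAC-seq peak lists of NMuMG cells, an established epithelial line from normal mouse mammary gland. ATAC-seq inserts sequencing adapters with the transposase Tn5 into DNA that is free of nucleosomes. There were 4 samples, 1 per group. A pair was kept in complete medium, which contains serum and insulin, and received either TGFβ1 at 5 ng/ml or its vehicle, given as HCl in the protocol and as Tris-HCl in the treatment labels, with albumin, for 2 h. The other pair went 6 h without serum and insulin before TGFβ1 at 5 ng/ml or vehicle was added for 10 min. For the TGFβ sample of the second pair the treatment label gives 2 h, and the title was followed. The labels assign 1 and the same list to both 10 min samples, so that list was taken as 1 list of starved cells and assigned to neither treatment, although its name mentions TGFβ at 10 min. All groups are the same cell line with no genetic change. Each condition has 1 list, so no test between conditions was possible, and the 95% intervals given here (Wilson for shares, Newcombe for differences of shares) cover the counting of regions alone. The lists carry no read counts. Read totals of the libraries, which the study's reporting summary states, were not used here. A region counts as open in a list of bulk cells whether many cells had it slightly open or few cells had it widely open.

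Distal accessible regions include enhancers, stretches of DNA where transcription factors bind and from which they act on promoters at a distance, as well as insulator sites bound by CTCF. Enhancers of epithelial cells are commonly bound by AP-1, a family of dimers of FOS, JUN and related proteins that recognises TGACTCA. TGFβ signals through receptor kinases to SMAD proteins, which enter the nucleus and bind short boxes such as CAGACA, or the palindrome GTCTAGAC, usually beside other factors. Regions that are open with and without the ligand and in both media make up the part of the distal landscape that the lists share.

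Sequences of members that carry the words on which the results turn are shown first (genome build mm9, plus strand, AP-1 words in capitals unless stated). The member with the most AP-1 words within 200 bp of its centre lies 18248 bp from the TSS of Usp7, a ubiquitin protease, and had 6 of them. Its central stretch (chr16:8810814-8811113) holds 5, of which 3 stand 10 bp apart.

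Usp7 member: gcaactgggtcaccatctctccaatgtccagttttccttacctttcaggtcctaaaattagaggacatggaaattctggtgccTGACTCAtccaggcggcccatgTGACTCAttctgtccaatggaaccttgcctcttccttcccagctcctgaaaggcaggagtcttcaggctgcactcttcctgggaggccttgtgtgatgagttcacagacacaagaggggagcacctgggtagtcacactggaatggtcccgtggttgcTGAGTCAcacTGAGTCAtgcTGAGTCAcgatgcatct

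The member in an intron of Jazf1, a zinc finger gene, had 4 words, all of them in the central stretch shown (chr6:52775564-52775863).

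Jazf1 member: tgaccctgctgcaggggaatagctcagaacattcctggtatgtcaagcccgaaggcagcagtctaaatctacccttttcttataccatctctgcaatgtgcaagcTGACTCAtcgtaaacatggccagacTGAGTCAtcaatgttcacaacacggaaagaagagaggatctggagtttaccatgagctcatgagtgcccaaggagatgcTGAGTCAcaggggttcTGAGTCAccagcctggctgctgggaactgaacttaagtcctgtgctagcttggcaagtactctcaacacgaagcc

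Oligonucleotides that the study used place 2 members in its enhancer inactivation experiments, in which a guide RNA (sgRNA) brings an inactive Cas9 fused to a repressor to an enhancer. The first lies 8725 bp from the TSS of Arid5a, an RNA-binding protein gene, between genes. It spanned 697 bp in the vehicle list, 744 bp in the TGFβ list and 664 bp in the 10 min list, with a score at the cap of 1000 in each, and had 3 AP-1 words within 200 bp of its centre. Its central stretch (chr1:36382819-36383118) contains the target of sgARID5A-2 and 2 of these words. It is shown because it holds the target, a choice made after its values were seen.

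Arid5a member: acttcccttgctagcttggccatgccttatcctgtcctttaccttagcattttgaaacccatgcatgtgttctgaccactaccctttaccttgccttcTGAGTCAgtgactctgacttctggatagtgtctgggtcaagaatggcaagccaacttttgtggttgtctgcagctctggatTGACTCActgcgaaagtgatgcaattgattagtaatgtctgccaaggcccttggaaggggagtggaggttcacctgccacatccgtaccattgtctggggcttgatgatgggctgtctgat

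The target of that guide is given next with its PAM, the 3 bases Cas9 requires beside a target, in capitals (chr1:36382940-36382959, plus strand).

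sgARID5A-2: gatagtgtctgggtcaagaaTGG

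The target of the other guide for this enhancer, sgARID5A-1, lay 35 bp outside the TGFβ-list region and 83 bp outside the 10 min region. The second member in these experiments holds both guide targets named for Tnnt2 (chr1:137759214-137759233 and chr1:137758644-137758663, minus strand, PAM in capitals).

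sgTNNT2-1: gggactggagtctattgccaGGG

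sgTNNT2-2: gccactcaacagatatgaggGGG

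That member spanned 898 bp in the vehicle list, 2225 bp in the TGFβ list and 748 bp in the 10 min list, and had no AP-1 word within 200 bp of its centre. It lies 14186 bp from the nearest TSS of a protein-coding gene, that of the desmosome gene Pkp1. The TSS of Tnnt2 is 20990 bp away and that of Lad1, a gene of epithelial anchoring filaments, 43267 bp. Of 6 guide targets and 6 ChIP-PCR amplicons listed by the study, 3 targets and 3 amplicons fell in these 2 members. Both targets and both amplicons named for Amigo1 fell instead in 1 region of 817 bp found in the TGFβ list alone. The nearest region of another list was over 8 kb away.

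The last sequence is from a member with a match to the CTCF motif (in capitals), 84290 bp from the TSS of Id2, an inhibitor of basic helix-loop-helix factors and a known TGFβ and BMP target (chr12:25865817-25866016).

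Id2 member: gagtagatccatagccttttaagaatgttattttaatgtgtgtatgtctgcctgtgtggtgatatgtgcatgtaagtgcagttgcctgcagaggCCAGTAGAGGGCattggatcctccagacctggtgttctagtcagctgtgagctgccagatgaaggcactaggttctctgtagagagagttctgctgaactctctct

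Members made up 29.9% of the 27584 distal regions of the TGFβ list. Of all TGFβ-list regions, those at a TSS included, 43.2% were found in every list. These are the background shares of the rule, and nothing is read from them. The remaining distal regions of the TGFβ list comprised 12748 found in neither other list, 5081 shared with the 10 min list alone and 1516 shared with the vehicle list alone. Taken from the other side, members formed 76.1% of the distal regions of the vehicle list and 49.9% of those of the 10 min list. Nearly all members matched 1 region in each list. Of the 8239, 8225 met a single vehicle region and 8232 a single 10 min region. In 35 members the vehicle and the 10 min region covered separate parts of the TGFβ region, so that no base was common to the 3 lists.

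By median, members were narrowest in the vehicle list and widest in the 10 min list. The median width was 392 bp in the vehicle list, 480 bp in the TGFβ list and 546 bp in the 10 min list. Between the lower and the upper quartile the members ranged from 291 to 528 bp, from 349 to 663 bp and from 407 to 722 bp in these lists. The TGFβ region was the wider in 68.5% of members against the vehicle region and in 35.8% against the 10 min region. The 10 min region was narrower than the vehicle region in 19.0% of members. The TGFβ region was at least 2 times as wide as the vehicle region in 1066 members, 12.9% of all. Bases called in the vehicle list covered 70.8% of the bases of the members. The part of sequencing depth in these widths was not tested.

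**Figure D1:**
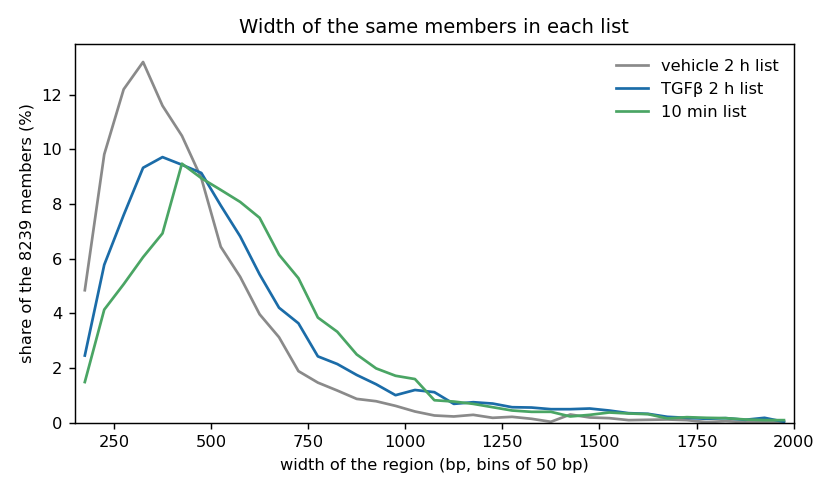
Share of the 8239 members (vertical axis, %) by the width of the region in each list (horizontal axis, bp, bins of 50 bp), with 1 line per list. The vehicle curve peaks at the narrowest widths and the 10 min curve is shifted to the right, with medians of 392, 480 and 546 bp in the vehicle, TGFβ and 10 min lists.

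The score of a peak, derived by the authors from the irreproducible discovery rate (IDR), runs up to a cap of 1000. In the TGFβ list 70.2% of members were at the cap, compared with 9.52% of the distal regions found in that list alone. In the vehicle list 33.1% and in the 10 min list 29.3% of members had it. It was reached in every list by 1498 members (18.2%). Members were also wider than regions of the TGFβ list alone, whose median width was 266 bp. Scores and widths are measures of the same lists that chose the members.

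The widest members show how unequal the lists could be at 1 place. The widest lay in an intron of Fez2 (chr17:78799580-78803536) and spanned 577 bp in the vehicle list, 3957 bp in the TGFβ list and 683 bp in the 10 min list. It was assembled from 5 intervals by joining gaps under 1000 bp. A member in an intron of Runx1, which encodes a transcription factor of the RUNX family, spanned 480, 2920 and 709 bp in the same order. A member 192824 bp from Cdh6, a cadherin gene, was wide in each list, at 2695, 2714 and 1798 bp. A member 7023 bp from the noncoding RNA gene Malat1 spanned 770, 2763 and 1580 bp (the sum of 2 regions in the vehicle and in the 10 min list), and one 50099 bp from the coding gene 6430527G18Rik spanned 484, 2584 and 1922 bp. The Cdh6 member was the exception among these, since its vehicle region was nearly as wide as its TGFβ region.

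Values near the limits of the rule are given as a description. The member closest to a TSS lay 1007 bp from that of 5730559C18Rik. The region farthest from its TSS among those left out lay 999 bp from that of Gm11940, in a coding exon of Krt10. The smallest overlap with the vehicle list was 23 bp, in a member 6422 bp from Snrpd2, and 6 members overlapped it by under 100 bp. The smallest overlap with the 10 min list was 128 bp, in a member 45350 bp from Sec23ip. The closest miss was a region 3 bp away from a vehicle region. Of the 5081 regions shared with the 10 min list alone, 57 had a vehicle region within 1000 bp.

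AP-1 words were common in the members. Within 200 bp of the centre 45.7% (44.6 to 46.8%) of members had at least 1 TGACTCA on either strand, whereas 6.18% of all 400-bp windows tiling the genome and 9.02% of TGFβ-list regions at a TSS had it. Members with 1 word numbered 2923, with 2 words 743 and with 3 or more 101. Matches crowded at the centre. There were 11.3 per 100 members per 50 bp within 50 bp of the centre and 1.02 at 500 to 1000 bp from it. A ranking of all words of 8 letters with at least 100 occurrences, made after the motif results were known, put 6 words that contain TGACTCA or its complement at the top of those without CG. The first, GTGACTCA, was 13.2 times as dense in the members' windows as in the genome.

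The bases beside the AP-1 word went with the chance that a site lay in a member. Of 418701 TGACTCA sites in the genome, each read on the strand that shows this word, 4746 (1.13%) lay within 200 bp of a member's centre. The share was 2.33% (2.14 to 2.54%) for GTGACTCAT and 0.215% (0.161 to 0.288%) for TTGACTCAA. By point value the 16 pairs of neighbours fell into 2 groups, which are described from these same shares. For the 9 forms without T before and without A after the word, shares ran from 0.789% to 2.33%. For the 7 forms with either of them, shares ran from 0.215% to 0.680%. At the border the intervals overlapped, with 0.707 to 0.880% for CTGACTCAG and 0.575 to 0.804% for GTGACTCAA. Regions of the TGFβ list alone showed the same split by point value. Their lowest share in the first group was 1.03% (0.936 to 1.13%). Their highest in the second was 0.932% (0.825 to 1.05%). How many sites of each form lie in repeats where reads cannot be placed was not tested.

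The AP-1 share of members was above that of the other distal regions, but not at equal peak score. Regions found in the TGFβ list alone had a share of 39.3% (38.4 to 40.1%), a difference of 6.43 points (5.06 to 7.80). Its size depended on the settings. It was 1.47 points (0.169 to 2.77) within 100 bp of the centre, 3.54 with intervals of at least 300 bp and 10.5 where the centre had to lie inside a region of each other list. Members were higher on 18 of 20 chromosomes and by 8.30 points after weighting to their GC content in bins of 5%. The shares of regions shared with the vehicle list alone (39.6%) and with the 10 min list alone (39.1%) were also lower. At equal score in the TGFβ list the order turned. Among regions at the cap the share was 50.6% (49.3 to 51.9%) in members and 57.4% (54.6 to 60.2%) in regions of the TGFβ list alone. At scores from 540 to under 700 it was 25.2% (21.1 to 29.8%) and 32.1% (30.9 to 33.2%). Members were lower in each of the 4 score classes, with intervals that did not overlap. When peaks below the median score of their list were left out, the difference was -0.952 points (-3.40 to 1.49). The higher share of the members as a whole thus stands beside their much larger share of regions at the cap. Score is a measure of the lists and is bound up with the choice of the members.

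**Figure D2:**
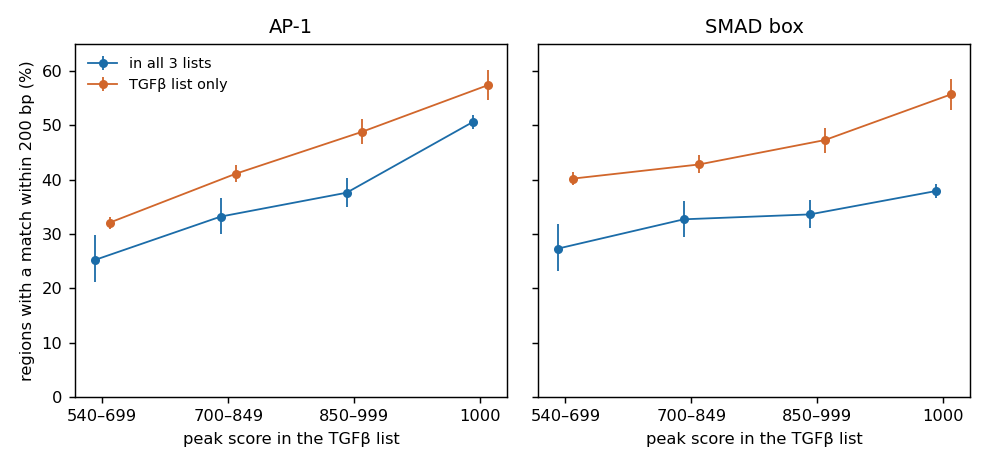
Share of regions with a match within 200 bp of the centre (vertical axis, %) by peak score in the TGFβ list (horizontal axis), for AP-1 (left) and the SMAD box CAGACA (right), with 95% Wilson intervals as bars. In both panels the line of members runs below that of regions of the TGFβ list alone in every score class, and both lines for AP-1 climb with score, from 25.2% to 50.6% in members.

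Width went with the AP-1 share too, and here members stayed the higher in 4 of 5 width classes. From 250 to 350 bp 48.7% of members had an AP-1 word, from 350 to 500 bp 53.3%, and from 500 to 700 bp 54.5%. The corresponding shares of regions of the TGFβ list alone were 43.5%, 46.2% and 47.8%. Below 250 bp the share was 31.1% (27.7 to 34.7%) in members and 33.7% (32.4 to 34.9%) in the other regions. In members of 700 bp or more it was 29.5%, where the window of 400 bp leaves out part of the region. Searched over their whole length, 54.4% of members had an AP-1 word and 39.5% of regions of the TGFβ list alone, which were narrower. Per length the order was the opposite, with 1.32 words per kb in members and 1.50 in regions of the TGFβ list alone. Members far from a TSS had an AP-1 word more often than members near one. The share was 42.0% at 1 to 5 kb from a TSS and 51.1% beyond 100 kb, while the mean GC content fell from 50.7% to 44.0%. By position, the share was 47.4% (45.8 to 49.0%) for members in introns and 44.4% (42.9 to 45.8%) for members between genes.

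The SMAD box showed another pattern. CAGACA was found within 200 bp of the centre in 36.2% (35.2 to 37.3%) of members, 43.4% (42.5 to 44.2%) of regions of the TGFβ list alone and 30.3% of genome windows. The difference between the first pair was -7.14 points (-8.49 to -5.79), and members were the lower on each of the 20 chromosomes. It was -6.68 points after weighting to the GC content of the members. Members were also lower in every score class. At the cap 37.9% (36.7 to 39.2%) of members and 55.7% (52.9 to 58.5%) of the other regions had the box. Along the regions the box was level in members, with 6.02 per 100 members per 50 bp within 50 bp of the centre and 6.06 at 500 to 1000 bp. In regions of the TGFβ list alone it stood at 9.43 at the centre and 6.05 in the flanks. Searched over the whole length, the order by share turned, with the box in 44.3% (43.2 to 45.4%) of members and 37.2% (36.3 to 38.0%) of the narrower regions of the TGFβ list alone, while per length members stayed lower, at 1.23 and 1.70 boxes per kb. The palindrome GTCTAGAC was rare but showed the same order, with 0.461% (0.336 to 0.632%) of members, 1.14% (0.968 to 1.34%) of regions of the TGFβ list alone and 0.306% of genome windows. Regions shared with the 10 min list alone resembled members in this respect, with the box in 36.3% and a difference of -0.0226 points (-1.71 to 1.65). Regions shared with the vehicle list alone had it in 39.6%.

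**Figure D3:**
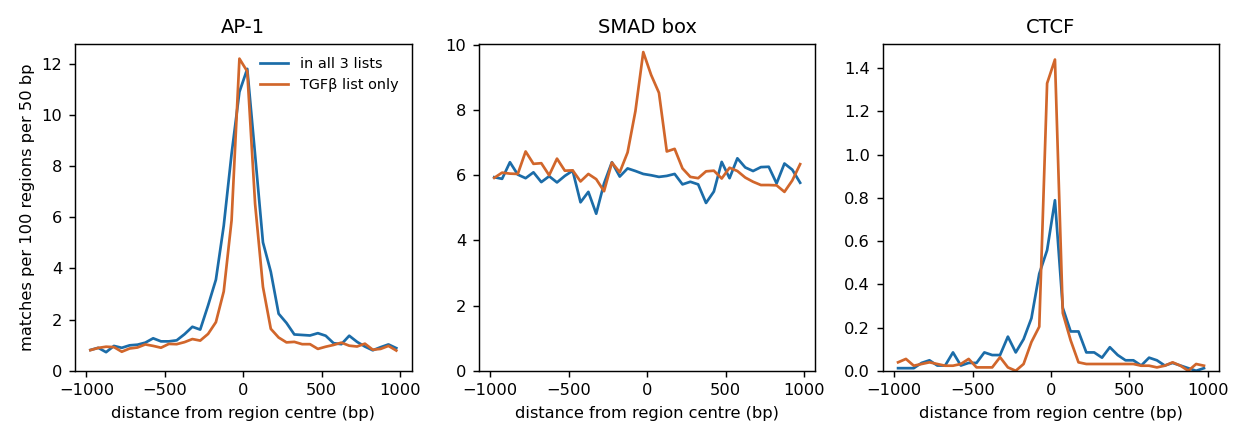
Matches per 100 regions per 50 bp (vertical axes) by distance from the centre of the TGFβ-list region (horizontal axes, bp) for AP-1, the SMAD box CAGACA and CTCF, in members and in regions of the TGFβ list alone. AP-1 and CTCF peak at the centre in both classes, whereas the SMAD box is level in members (6.02 at the centre, 6.06 in the flanks) and peaks at 9.43 in regions of the TGFβ list alone.

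Within the members the box went with the change of width between lists. Members were divided into 4 classes of equal size by the ratio of TGFβ to vehicle width. In the class with the smallest ratio (up to 0.961) 30.5% had CAGACA, and in the following classes 35.3%, 39.8% and 39.3%. AP-1 shares over the same classes were 42.0%, 47.1%, 52.8% and 41.0%, with no steady order. The median TGFβ width was 356 bp in the first of these classes and 682 bp in the last. By TGFβ width alone, in 4 classes from narrow to wide, the box was found in 32.2%, 37.0%, 38.4% and 37.3%. By vehicle width the shares were 36.6%, 35.3%, 38.4% and 34.6%. Whether the ratio adds to the TGFβ width was not tested. Members with an AP-1 word had the box in 38.0% and members without it in 34.8%, a difference of 3.19 points (1.10 to 5.27). The member 62104 bp from Cd2ap had the most boxes, 11 in 208 bp, with a distance of 6 bp, the length of the word, occurring 4 times. A member 27323 bp from Fam72a and one 7826 bp from 2610002I17Rik had 9 boxes each.

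Of 26 motifs searched, 25 were found in a larger share of members than of genome windows. CAGACA and the Snail/ZEB E-box CAGGTG came closest to the genome, at 1.20 and 1.05 times its share. For the SRF motif 0 of 8239 members had a match, which allows a share of up to 0.0364% by the limit of 3 counts and 0.0466% by the Wilson interval. In genome windows it was 0.0453%. Words of the RUNX factors (TGTGGTT) were found in 17.2% (16.4 to 18.1%) of members and 13.8% (13.2 to 14.4%) of regions of the TGFβ list alone. Regions shared with the vehicle list alone had them in 16.4%, a difference of 0.810 points (-1.30 to 2.77). Regions shared with the 10 min list alone had them in 15.4%, a difference of 1.84 points (0.549 to 3.12). RUNX words peaked at the centre, with 3.36 per 100 members per 50 bp compared with 1.36 in the flanks. Forkhead words (TGTTTAC) stood at 10.5% in members, 8.64% in regions of the TGFβ list alone and 8.77% in regions shared with the vehicle list alone. Regions shared with the 10 min list alone had them in 9.78%, and the interval of that difference (-0.383 to 1.72) held 0. TEAD words (CATTCCA), bound by partners of the growth regulator YAP, stood at 10.7% in members and 10.8% in regions of the TGFβ list alone. They were most frequent in regions shared with the vehicle list alone, at 14.1% (12.5 to 16.0%). The HNF1 motif was rare, at 0.413% of members, which was 10.9 times its share in genome windows, and it was found in 0.165% of regions of the TGFβ list alone. Its share was 0.264% in regions shared with the vehicle list alone and 0.256% in those shared with the 10 min list alone. Both of these differences had intervals that held 0. RUNX, forkhead, TEAD and HNF1 shares were not compared between classes at equal peak score or width.

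The SP and KLF words, which are rich in G and C, were more frequent in members than in regions of the TGFβ list alone. The SP word GGGCGGG was found in 7.91% (7.35 to 8.52%) of members and 3.46% (3.16 to 3.79%) of regions of the TGFβ list alone, and the KLF word CCCCACCC in 9.25% and 6.28%. The SMAD word GGCGCC was found in 4.22% of members, 4.21% of regions shared with the 10 min list alone and 2.16% of regions of the TGFβ list alone. Compared with regions of the TGFβ list alone, members were higher for the SP and KLF words on each of the 20 chromosomes. After weighting to the GC content of the members these differences were 2.56 and 1.70 points. For GGCGCC members were higher on 18 chromosomes and lower on 2. Its difference was 2.07 points, and 0.528 after the same weighting. Against regions shared with the vehicle list alone, the weighted differences of the SP and KLF words were 1.06 and 0.119 points. Against regions shared with the 10 min list alone they were 1.44 and 0.665 points. None of these words was compared between classes at equal peak score or width. The mean GC content was 48.1% in members, 46.2% in regions of the TGFβ list alone and 41.8% in genome windows. A window had 6.46 CpG on average in members and 4.40 in regions of the TGFβ list alone.

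CTCF matches split the distal classes in another way. A match was found in 2.71% (2.38 to 3.08%) of members, 14.1 times the share in genome windows, and in 7.79% (7.09 to 8.56%) of regions shared with the 10 min list alone. The difference was -5.09 points (-5.92 to -4.29), with members lower on 19 of 20 chromosomes. Those regions were narrower, with a median of 316 bp in the TGFβ list and 480 bp in members. These 2 classes were not compared at equal width or score. Of regions of the TGFβ list alone 3.54% had a match, above the share of members. At equal score that order turned in every score class. At the cap it was 1.52% (1.24 to 1.87%) in members and 0.659% (0.334 to 1.29%) in the other regions. In members CTCF went with narrow regions. The share was 13.0% (10.6 to 15.7%) below 250 bp and 0.659% (0.377 to 1.15%) at 700 bp or more. It also went with the absence of AP-1, at 3.89% of members without and 1.30% of members with an AP-1 word. Neither was particular to members. In regions of the TGFβ list alone the shares were 6.37% below 250 bp and 0% at 700 bp or more. They were 5.36% without and 0.719% with an AP-1 word. The 3 widest members with a match spanned 1964, 1388 and 1238 bp in the TGFβ list and lay nearest to Pawr, Id2 and B4galnt4. The Id2 member spanned 390 bp in the vehicle list and 1468 bp in the 10 min list.

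**Figure D4:**
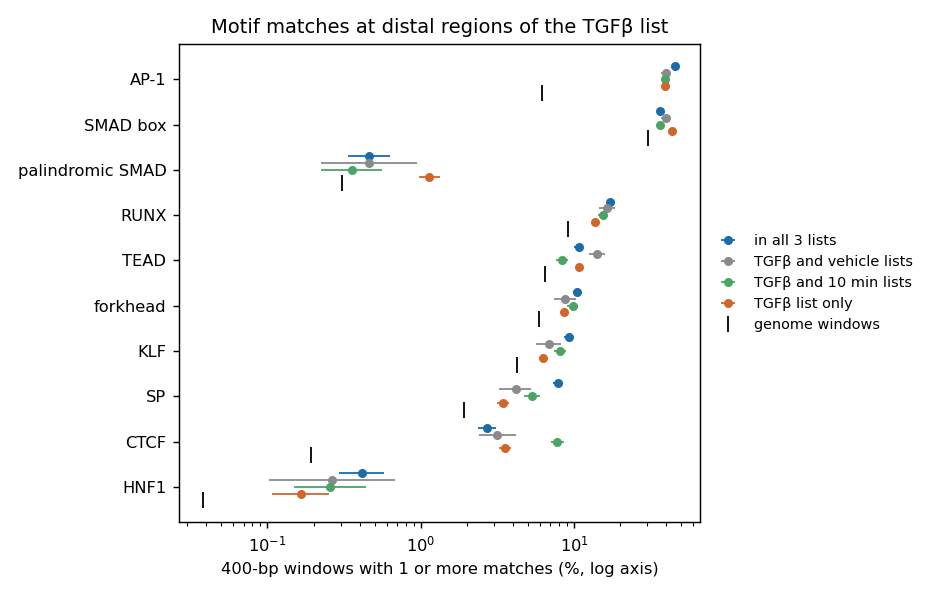
Share of 400-bp windows with at least 1 match (horizontal axis, %, log scale) for 10 motifs (vertical axis) in members, in the other distal classes of the TGFβ list and in windows tiling the genome, with 95% Wilson intervals as bars. AP-1 lies at 45.7% in members and 6.18% in the genome, and CTCF is highest, at 7.79%, in regions shared with the 10 min list alone.

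The share of members inside genes was near that of all distal regions of the list, with overlapping intervals. The centre lay inside an annotated gene in 47.1% (46.1 to 48.2%) of members, in 47.9% (47.3 to 48.5%) of all distal TGFβ-list regions and for 39.8% of the bases of the genome beyond the TSS windows. Introns held 44.6%, coding exons 0.789% and other exons 1.77% of members. The median distance to a TSS was 18623 bp in members, 20359 bp in regions of the TGFβ list alone, 20506 bp in those shared with the vehicle list alone and 15749 bp in those shared with the 10 min list alone. Beyond 100 kb lay 8.99% (8.40 to 9.63%) of members and 12.2% (11.7 to 12.8%) of regions of the TGFβ list alone.

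Members occurred on the autosomes and the X chromosome at 3.22 per Mb. The density was highest on chromosome 19, at 5.95 per Mb, and lowest on the X chromosome, at 0.808. On the X chromosome members also formed a smaller share of the distal TGFβ-list regions, 19.6% (16.7 to 22.7%). Another member lay within 10 kb for 19.6% (18.8 to 20.5%) of members, and the median gap to the nearest was 38272 bp. Joining members with gaps of up to 12.5 kb gave 155 runs of 3 or more. The largest runs had 6 members each. One overlapped Fosb and Rtn2. Fosb encodes a FOS protein of AP-1 (chr7:19881225-19918641). The other lay in Dlgap1 (chr17:71058964-71103536), nearest to Tgif1, a repressor of SMAD-dependent transcription. Runs of 5 were nearest to Ets2, Chd2, Dagla, Plekhg6 and Cd9, and Lonrf1 and D8Ertd82e.

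Of 22208 protein-coding genes, 4741 (21.3%) had the TSS nearest to at least 1 member, and 825 had 3 or more. Nearness does not show which gene a region acts on. The most members, 12 each, were nearest to Maml3, a coactivator of Notch, and Myc, the growth regulator. Those of Myc lay 56162 to 513498 bp from its TSS, and those of Maml3 1801 to 121293 bp, with 11 of them inside genes. They were 12 of the 21 distal TGFβ-list regions nearest to Maml3 and 12 of the 34 nearest to Myc, beside 29.9% of all distal regions. Next came 2010111I01Rik with 11, then with 10 each the forkhead gene Foxp1, the phosphodiesterase gene Pde4d, the sialyltransferase gene St3gal1 and the corepressor gene Tbl1xr1. The cytoskeletal adaptor gene Ank3, the coactivator gene Cited2 and Ets2 had 9 each. The distal TGFβ-list regions behind these counts numbered 33 for Pde4d, 30 for Tbl1xr1, 28 for Foxp1, 25 each for St3gal1 and Cited2, 21 each for 2010111I01Rik and Ank3 and 16 for Ets2. For Cited2 they lay 137988 to 1214986 bp away.

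Lists of genes of this cell type and pathway, compiled with earlier results of these data known, are described by their counts. As background, 43.3% of all protein-coding genes were nearest to at least 1 distal TGFβ-list region and 21.3% to a member. Apart from the SMAD genes, Snai1, Snai2 and Zeb1, the genes named for a list were those with the most members in it. Their shares of members do not describe the list as a whole. Of the TGFβ pathway feedback and target genes 19 of 27 had a member nearest to them, with a median of 2 members over the list. Members were 8 of the 11 distal TGFβ-list regions nearest to Tgif1 and 6 of the 9 nearest to Id2. For Itgb6, whose integrin activates latent TGFβ, they were 7 of 9. Of the ligands, receptors and SMAD genes 12 of 24 had a member, led by the ligand gene Tgfb2 with 8 of 15 regions. The ligand gene Bmp2 had 6 of 16 and the receptor gene Tgfbr2 had 6 of 14. The median over all protein-coding genes was 0. Among SMAD genes of this list Smad3 had 2 members of 15 distal regions, Smad4 had 1 of 1 and Smad2 had 0 of 1. Smad1 had 0 of 8 and Smad5 had 0 of 4, and Smad9 had no distal region.

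Among epithelial genes, 22 of 36 junction and adhesion genes had a member. For the polarity gene Pard3 they were 6 of the 18 distal TGFβ-list regions nearest to it. Cdh1, which encodes E-cadherin, had 4 of 7, and the catenin gene Ctnnd1 had 4 of 5. Over all distal TGFβ-list regions the share of members was 29.9%, but these 3 genes were picked for their number of members. Epithelial transcription factor genes were represented by 13 of 21. Sox9 had 9 members among 16 such regions, with the members 216294 to 380251 bp from its TSS. Klf5 had 6 of 14 and Ehf had 5 of 10. Of 12 keratin genes 4 had a member, with 3 of 4 regions for Krt18 and 1 of 2 for Krt19. Of 21 integrin and laminin genes 15 had a member. Among them were Itgb6 with 7 of 9 regions, Lamc1, a basement membrane laminin, with 5 of 6 and Itgav with 3 of 7.

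Genes of the AP-1 family had members at 9 of 19. Members were 4 of the 5 distal TGFβ-list regions nearest to Fosb, 4 of 16 for Maf and 2 of 3 for Atf3. Transcription factors of the epithelial-mesenchymal transition had members at 6 of 12. Zeb2 had 5, at 90143 bp and more from its TSS, Twist2 had 4 and Hmga2 had 3, and Snai1, Snai2 and Zeb1 had none. These were 5 of 19 distal TGFβ-list regions for Zeb2, 4 of 4 for Twist2, 3 of 4 for Hmga2, 0 of 2 each for Snai1 and Snai2 and 0 of 5 for Zeb1. Mesenchymal and contractile genes had 9 of 26, with no more than 2 at any gene. Members were 2 of 9 distal TGFβ-list regions for Cald1, 2 of 4 for Col1a1 and 2 of 8 for Tpm1. As genes of other cell types, neuronal genes had 5 of 16, with 3 of 5 distal regions for Snap25 and 3 of 7 for Syt1. Leukocyte genes had 1 of 17, a single member near Ptprc among 2 distal regions. The part of the space between genes in these counts was not tested.

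**Figure D5:**
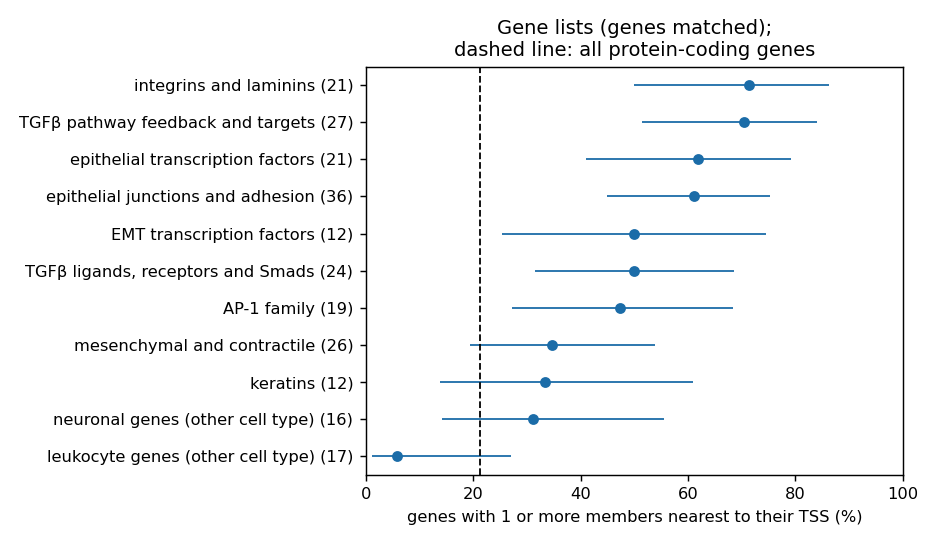
Share of the genes of each list with at least 1 member nearest to their TSS (horizontal axis, %), with 95% Wilson intervals as bars, the number of genes matched beside each name and the share of all protein-coding genes (21.3%) as a dashed line. The highest share is that of integrin and laminin genes, 71.4%, and the lowest that of leukocyte genes, 5.88%.

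The epithelial label of the cells was checked at promoters. Of 7 epithelial markers, 2 (Krt8 and Krt18) had an open TSS in the vehicle and TGFβ lists and 3 in the 10 min list, where Cdh1 was added. Epcam, Cldn3, Cldn7 and Esrp1 had none in any list. None of 4 leukocyte, 3 hepatocyte and 3 muscle markers was open, and of 4 neuronal markers Snap25 was open in the TGFβ list. Most of the epithelial markers thus lacked an open TSS in every list.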

How the data were processed

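Per the labels and the study's methods, the authors aligned ATAC-seq reads of NMuMG cells to mm9, called peaks with MACS2 2.1.2 in the ENCODE pipeline and kept peaks at an IDR of up to 0.05. The deposited lists hold chromosome, start, end and a score from 540 to 1000 for each peak. The score was not compared as a signal between lists, and what served as replicates for the IDR was not settled. Intervals under 150 bp were dropped and gaps under 1000 bp joined, after the study's rule. TSSs and genes were those of GENCODE vM1 on mm9. Motifs were consensus words, read on either strand, in the 400 bp around the midpoint of the TGFβ-list region. A consensus match is a description of sequence, not of binding. Functions were tested on simulated data. Members, motifs and gene lists were chosen with earlier results of these data known. Regions named are the widest, those with the most AP-1 or SMAD words, the widest with a CTCF match, those at the limits of the rule and those holding the study's guides or amplicons. Genes named are the 10 with the most members and 3 per list, and some others after their values were seen. Python 3.11.15, numpy 2.4.6 and pandas 2.3.3 were used. With 1 list per condition there was no test between conditions. Alternatives changed the width minimum, merging, overlap, TSS window and catalogue, score minimum, list of coordinates and motif window.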

Additional observations from a re-analysis of the deposited data

How the results depend on the processing

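No paired analysis was possible because each group has 1 sample, and there was no replicate to leave out. The lists hold no read counts, and the depth of the libraries was not used. The number of members stayed within 1.5 times of 8239 except with a minimum interval width of 300 bp (5283) and with peaks at or above the median score of their list (2259). The values below are given in the order minimum width 300 bp, joining of touching intervals only, midpoint inside a region of each other list, at least 0.5 of the region covered by each, median score, and coordinates of the vehicle list. Members' share of the distal regions was 34.7%, 28.7%, 26.4%, 25.3%, 23.0% and 76.1%, and 49.9% in coordinates of the 10 min list. The AP-1 share was 49.3%, 48.4%, 48.6%, 48.3%, 54.0% and 48.0%. It was 33.4% in a window of 100 bp to either side, 55.6% in one of 500 bp and 48.6% around the midpoint of the common bases. The AP-1 difference from regions of the TGFβ list alone was 3.54, 8.87, 10.5, 10.1, -0.952 and 8.76 points, and 1.47, 8.40 and 8.59 points with those 3 windows. It turned with the median score, where the interval (-3.40 to 1.49) held 0, and the cause was not tested. The share inside genes was 44.5% with a TSS window of 5 kb and 44.0% with the median score. The SMAD box difference, whose alternatives were chosen after seeing the data, was -11.3 points with the minimum width of 300 bp, -10.5 with the median score and -5.09 in the window of 500 bp, and its interval stayed below 0 in all 13 alternatives, which use windows of fixed length. Over whole regions of unequal width the share was higher in members (44.3% and 37.2%).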
